A study of Homo sapiens with 18 samples.

Results

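Core spliceosome genes were followed in long reads of nascent RNA from K562 cells, an established line derived from chronic myeloid leukemia. A gene was taken as a member when its symbol began with SF3A, SF3B, PRPF or LSM and a digit, or with SNRP, SNRNP or U2AF. This gave 56 transcripts of 55 genes among the 13051 transcripts of the table, each gene being counted on a representative transcript and PRPF18 on a pair of them. The value of a transcript is its number of readthrough reads, that is, long reads whose 3′ end lies more than 100 nt past the annotated end of that transcript.

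There were 6 conditions with 3 biological replicates each. CTRL was untreated, KCl 45min had 110 mM KCl for 45 min, and JTE 1h had 5 µM JTE-607, an inhibitor of the 3′-end endonuclease CPSF73, for 1 h. CTRLim was a further untreated group prepared concurrently with the imatinib samples, and IM 1h and IM 18h had 1 µM imatinib, an inhibitor of the Bcr-Abl1 kinase, for 1 and 18 h. All groups were the same cell line, and treatments were compared with the untreated group of their own set, since set and treatment cannot be told apart across sets.

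The spliceosome removes introns and is built from small nuclear ribonucleoproteins (snRNPs), each made of a small RNA and its proteins. U1 marks the 5′ splice site, U2 with the SF3A and SF3B complexes binds the branch point, and the U4/U6.U5 tri-snRNP brings in the catalytic parts. A ring of Sm proteins is carried by most of these RNAs, and a ring of LSM proteins by U6. Readthrough arises where the nascent RNA of such a gene, like that of any other, is not cleaved at its polyadenylation site.

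The libraries held 229855 to 1349556 reads after filtering, and levels are given as readthrough reads per 1000000 of these library reads (RPM). A level of this kind rises with transcription of the gene as well as with failed cleavage, and these cannot be told apart here. The erythroid marker list, with 8 of 9 genes in the table, had reads for all 8 and 70.1 to 1258 RPM per library, while the lymphoid and the epithelial or stromal lists had 2 and 4 reads in all. The erythroid list averaged 374.1 RPM in CTRL, 137.0 in KCl 45min, 278.0 in JTE 1h, 608.4 in CTRLim, 704.6 in IM 1h and 1231 in IM 18h. Its part in the results below was not tested.

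The counted reads run past the annotated end of the transcript, and the sequence there is shown for 8 of the members described below. The last 30 bases before that end are given from the GRCh38 reference with the polyadenylation hexamer (AATAAA, or its common variant ATTAAA) in capitals.
SF3B5: gctttttccataaagtttagaaatcgttca
SNRPB: ggtttatAATAAActcttaagagaacatta
SNRPE: tgaAATAAAgggctgcattagttcttttaa
SNRPD1: tctgtgaAATAAAgaggagtactttctttt
SNRPG: aatcttATTAAAtgtgaaacatggcaagga
PRPF4B: aaactgAATAAAatatgcctcttattatca
LSM8: acctaaaAATAAAttattttacagaggcta
PRPF18: tcttgcaatagaatttgaatgtaaatatta

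SF3B5 and PRPF18 carried neither hexamer in the last 40 bases. Over all members 39 of 56 (69.6%) held either hexamer in that window on the transcribed strand, against 72.7% of the 12704 transcripts matched to GENCODE 44. The hexamer nearest the end was AATAAA in 51.8% of members and 57.4% of all, and ATTAAA in 17.9% and 15.3%. A transcript with both was counted for that hexamer only. A match is a description of the letters and says nothing of use of the site.

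The members gave 2644 of the 447434 readthrough reads. The median member had 32 reads over the 18 libraries against 10 for the median transcript, and 30 members (53.6%) reached 30 reads against 26.7% of all transcripts. The 4 members with most reads, SF3B5 with 220, SNRPB with 193, LSM14A with 173 and PRPF18 with 151, held 27.9% of them. At the other end, 9 members had under 10 reads, among them PRPF31 with 5, SNRPN with 1 and U2AF2, the large subunit of the factor that reads the polypyrimidine tract, with 0. The Sm ring genes SNRPD3 and SNRPF are not analysed here.

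**Figure D1:**
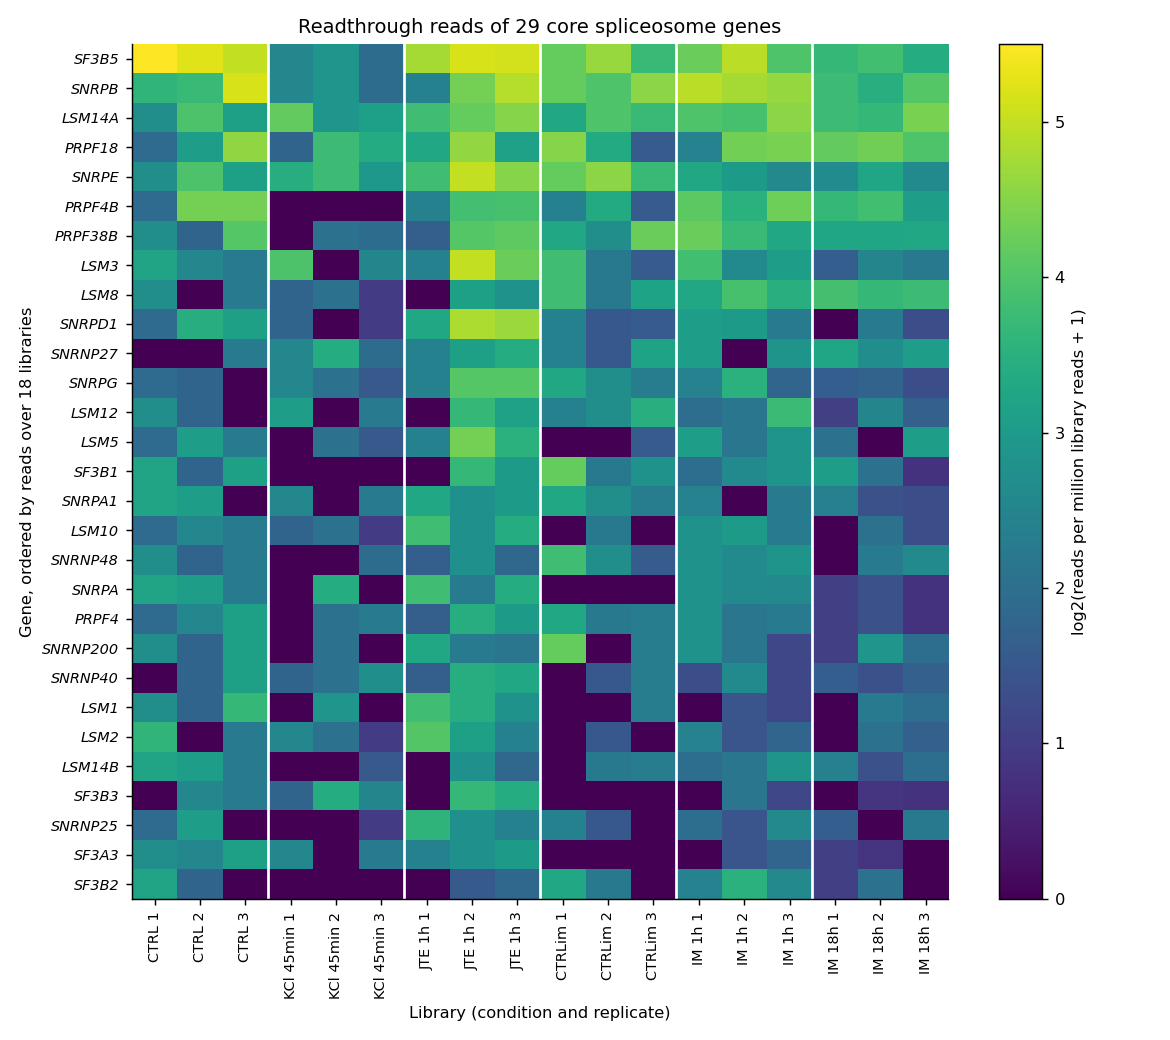
Readthrough reads of 29 of the 30 members with at least 30 reads over the 18 libraries, as log2(RPM + 1), with genes as rows ordered by their reads and libraries as columns grouped by condition. SF3B5 and SNRPB fill the upper rows, and PRPF4B and SF3B1 are at 0 in the 3 KCl 45min libraries.

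The neighborhood of the counted regions limits what a read can be assigned to. The counted region of SNRNP27 started inside MXD1, that of U2AF1L4 inside IGFLR1 and that of SNRPN inside SNHG14, each on the same strand. For both PRPF18 transcripts and for SF3B1 it started inside the longer annotation of the gene itself. A coding gene on the other strand lay within 1000 nt for 10 members (17.9%, against 22.2% of all matched transcripts), such as FAM217A beside PRPF4B and PCYOX1 beside SNRPG.

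Summed over the members, readthrough was lowest in KCl 45min and highest in JTE 1h. The CTRL libraries had 249.5, 216.8 and 290.0 RPM, the KCl 45min libraries 116.9, 124.3 and 102.3 RPM, and the JTE 1h libraries 217.6, 466.7 and 416.6 RPM. KCl 45min lay below CTRL without overlap, whereas JTE 1h replicate 1 lay within the CTRL range. That library also stood apart from the other JTE 1h libraries in its total readthrough, which was 3.06% of library reads against 5.40 and 5.05%. Its readthrough reads were shorter, with a median of 1588 nt against 2320 and 2243 nt. The CTRL medians were 1685, 1743 and 2187 nt. The part of read length in the member sums was not tested. The 95% exact binomial interval was 177.1 to 264.7 RPM for JTE 1h replicate 1 and 409.5 to 529.6 RPM for replicate 2, covering counting error only.

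In the imatinib set the CTRLim libraries had 252.3, 194.4 and 182.8 RPM, the IM 1h libraries 249.6, 259.9 and 255.4 RPM, and the IM 18h libraries 153.2, 179.3 and 169.7 RPM. All IM 18h libraries lay below all IM 1h and all CTRLim libraries. IM 1h replicate 1 lay below the highest CTRLim library, so that those groups overlapped.

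The sums were set beside all readthrough reads. The member mean differed by -54.6% in KCl 45min from CTRL, and that of all readthrough reads by -28.5%. In IM 18h against IM 1h the differences were -34.4% for members and -15.6% for all readthrough. Members were 21.5% higher in IM 1h than in CTRLim against 8.95% for all readthrough, and 45.5% higher in JTE 1h than in CTRL against 32.6%. Without JTE 1h replicate 1 the ratio of JTE 1h to CTRL was 1.75 for members and 1.54 for all readthrough. The JTE 1h libraries then left had longer readthrough reads than every CTRL library, and the part of this in the ratio was not tested. In IM 18h against CTRLim the differences were -20.2% for members and -8.06% for all readthrough, and the member difference of -42.5 RPM became -21.2 RPM without CTRLim replicate 1. Between the untreated groups the directions were opposite, with -16.8% for members and 18.4% for all readthrough in CTRLim against CTRL. As the members were chosen as a list, no test was made on the sums.

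As a share of all readthrough reads, members held 0.740% ± 0.0822 (SD, n = 3) in CTRL, 0.472% ± 0.00740 in KCl 45min and 0.800% ± 0.0798 in JTE 1h. The share was 0.519% ± 0.0469 in CTRLim, 0.581% ± 0.00987 in IM 1h and 0.452% ± 0.0321 in IM 18h. The untreated groups themselves did not overlap in this share, with 0.654 to 0.818% in CTRL and 0.475 to 0.569% in CTRLim.

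**Figure D2:**
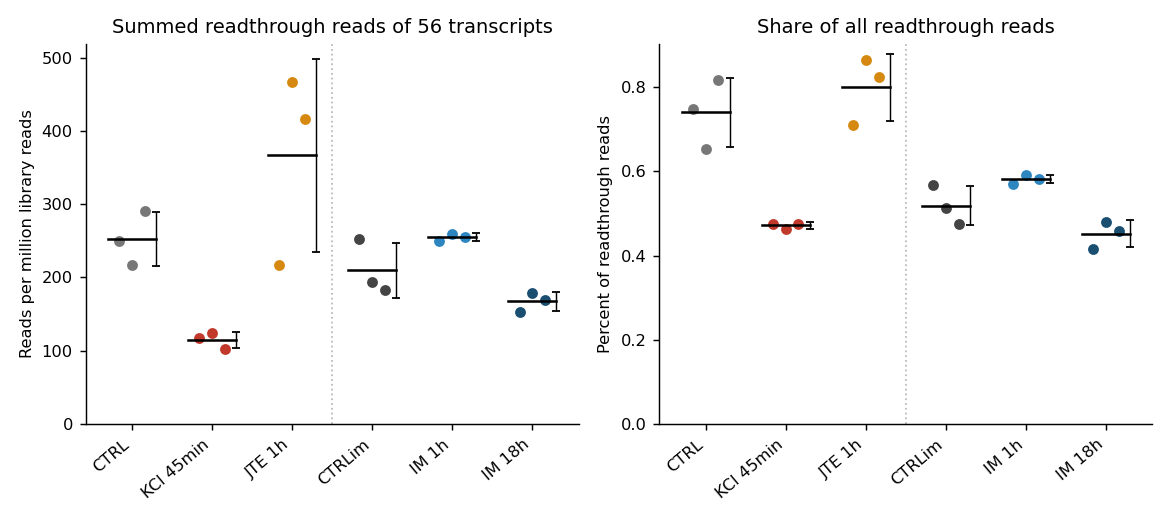
Summed readthrough of the 56 member transcripts by library, in RPM on the left and as percent of all readthrough reads on the right. Points are libraries, horizontal lines group means and bars SD over 3 libraries, and the dotted line parts the library sets. The KCl 45min points (102.3 to 124.3 RPM) lie below all others on the left.

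By role, the mean in KCl 45min lay below that in CTRL for each of the 8 groups of members. It was 0.191 of the CTRL mean for the other PRPF proteins, 0.237 for the minor spliceosome, 0.305 for U2 and the branch point, 0.359 for U1, 0.492 for the Sm ring, 0.590 for the LSM ring, 0.667 for U5 and U4/U6, and 0.728 for LSM proteins outside the spliceosome. The U2 sums were 58.01 to 80.4 RPM in CTRL and 18.0 to 22.3 in KCl 45min, with no overlap. SF3B5 alone made up 37.3 of the mean of 68.1 RPM in CTRL and 4.69 of 20.7 RPM in KCl 45min, and so most of the difference. The other PRPF and the Sm ring sums did not overlap either. The LSM sums outside the spliceosome overlapped, at 19.3 to 29.2 and 9.56 to 26.8 RPM. So did those of the minor spliceosome, U1, the LSM ring, and U5 and U4/U6. The minor spliceosome rested on 11 reads in CTRL and 6 in KCl 45min, and U1 on 14 and 6.

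In JTE 1h the LSM ring had 2.03 and the Sm ring 1.92 times the CTRL mean, while U1 had 0.977 times and the other PRPF proteins 1.02 times. The LSM ring libraries lay at 37.0 to 75.8 RPM against 17.1 to 36.0 in CTRL, without overlap. For the Sm ring, 34.8 to 103 RPM overlapped with 27.7 to 54.1. In IM 18h the Sm ring had 0.513 times the IM 1h mean, at 20.2 to 26.6 against 36.1 to 52.3 RPM, without overlap. The ratio was 0.291 for U1, 0.585 for the other PRPF proteins and 0.608 for U2 and the branch point, also without overlap. It was 0.608 for the minor spliceosome, 0.661 for LSM proteins outside the spliceosome, 0.799 for the LSM ring and 0.864 for U5 and U4/U6. The U1 ratio rested on 17 reads in IM 1h and 9 in IM 18h. Between the untreated groups, U1 in CTRLim had 0.240 times the CTRL mean.

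**Figure D3:**
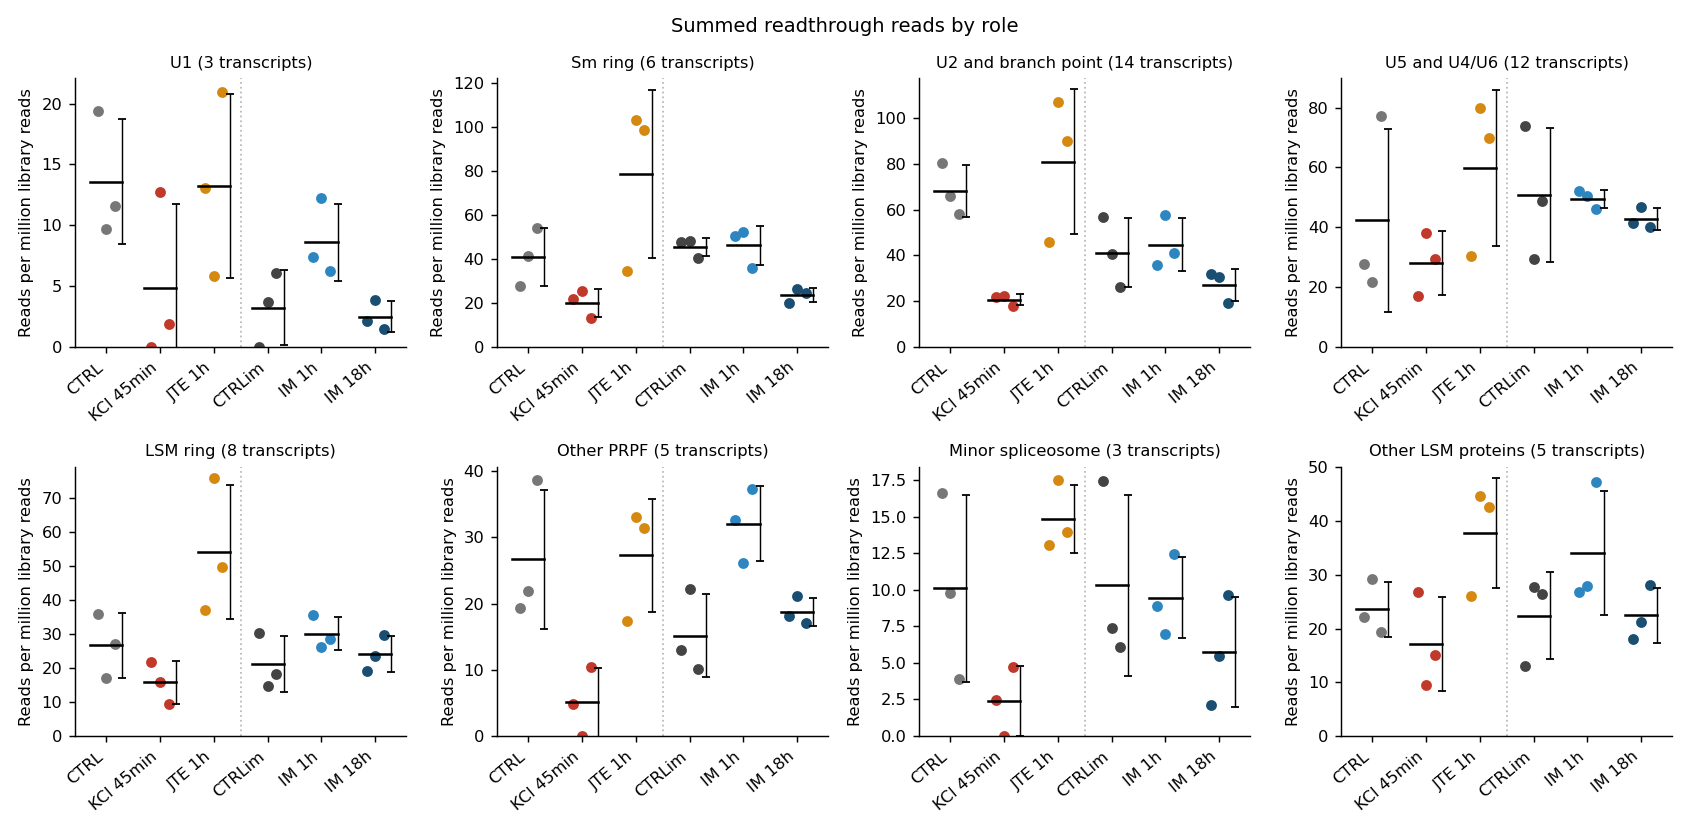
Summed RPM of the members of each role by library, with group means and SD over 3 libraries, on axes scaled to each role. The Sm ring panel shows IM 18h (20.2 to 26.6 RPM) below IM 1h (36.1 to 52.3 RPM), and the U2 panel shows KCl 45min (18.0 to 22.3 RPM) below CTRL (58.01 to 80.4 RPM).

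Single genes were tested with edgeR's quasi-likelihood test in the 6 libraries of a comparison, over all transcripts with at least 30 reads in them, and called at a Benjamini-Hochberg adjusted p under 0.05. Between 1 and 11 members passed this minimum in a comparison and 13 passed in at least 1, so most members were not tested. A member that passes through a group where it is high is more likely to differ, and the counts below describe the tested members only.

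SNRNP70, a U1 protein that binds the U1 RNA, had 11 reads over all libraries and was not tested. SNRPA, another U1 protein, had 3, 3 and 1 reads in CTRL, 0 in each CTRLim library and 4, 3 and 4 in IM 1h. With 3 reads taken for the CTRLim group in place of 0, its level in IM 1h was 2.26-fold higher, and that in CTRL 2.86-fold higher. These ratios leave out the counting error of the IM 1h and CTRL reads and are not bounds. The level of this gene thus lay apart between the untreated groups as well.

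SNRPB encodes the Sm proteins B and B′, and its transcript lies on chr20:2461642-2470789 on the minus strand. It had 4, 8 and 11 reads in CTRLim, 20, 15 and 19 in IM 1h and 12, 13 and 21 in IM 18h, which is 18.2 ± 3.83, 26.5 ± 3.04 and 12.8 ± 2.69 RPM (SD, n = 3). Every IM 18h level lay below every IM 1h level, as was the case for 26.3% of all transcripts tested. SNRPB was lower in IM 18h than in IM 1h by a log2 fold change of -1.03 (SE 0.336, adjusted p = 0.0211 by edgeR's quasi-likelihood test, Benjamini-Hochberg adjusted).

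This was the 1 member called of 11 tested in that comparison, where 18.3% of all 1720 transcripts tested were called. The call was lost when all readthrough reads were taken as library size, with a log2 fold change of -0.79 and adjusted p = 0.111 by edgeR. It was also lost without IM 1h replicate 1 (adjusted p = 0.104), without IM 1h replicate 2 (0.0639) and without IM 18h replicate 2 (0.0907). In IM 1h against CTRLim SNRPB did not pass, with a log2 fold change of 0.53 (SE 0.374, adjusted p = 0.531 by edgeR).

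SNRPE encodes the Sm protein E, and its transcript lies on chr1:203861599-203871152 on the plus strand. It had 4, 12 and 6 reads in CTRLim, 6, 4 and 4 in IM 1h and 5, 11 and 7 in IM 18h, or 17.3 ± 5.02, 6.96 ± 1.97 and 6.37 ± 1.94 RPM. Both imatinib groups lay below CTRLim without overlap. The other untreated group, CTRL, had 9.30 ± 4.74 RPM and overlapped with both imatinib groups. CTRLim against CTRL had a log2 fold change of 0.83 (SE 0.591, adjusted p = 0.378 by edgeR). SNRPE was lower in IM 18h than in CTRLim by a log2 fold change of -1.41 (SE 0.464, adjusted p = 0.0310 by edgeR's quasi-likelihood test, Benjamini-Hochberg adjusted).

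It was the 1 member called of 9 tested there, beside 14.1% of 1386 transcripts, and the 1 whose groups did not overlap, beside 31.7%. The call did not hold without CTRLim replicate 2 (log2 fold change -1.10, adjusted p = 0.308 by edgeR), without CTRLim replicate 3 (adjusted p = 0.0502) or without IM 18h replicate 3 (0.111). In IM 1h the log2 fold change against CTRLim was -1.32 (SE 0.506) and did not pass, with adjusted p = 0.212 by edgeR. None of 8 members tested in that comparison was called, beside 1.52% of 988 transcripts, and DESeq2 called 0. An unadjusted p under 0.05 was seen for 2 of the 8 beside 13.3% of transcripts, and groups without overlap for 3 (SNRPB, SNRPE and PRPF4B) beside 18.4%.

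SNRPD1 (transcript at chr18:21630138-21633524, plus strand) and SNRPG (chr2:70281362-70293740, minus strand) encode the Sm proteins D1 and G. SNRPD1 had 1, 4 and 2 reads in CTRL and 4, 14 and 28 in JTE 1h, or 6.75 ± 3.59 and 20.1 ± 9.98 RPM. SNRPG had 1, 1 and 0 reads in CTRL and 2, 8 and 18 in JTE 1h, or 1.74 ± 1.51 and 11.9 ± 6.51 RPM. JTE 1h replicate 1 was the lowest of its group for both genes, and the groups did not overlap for SNRPG but did for SNRPD1.

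The log2 fold changes in JTE 1h were 1.57 (SE 0.706) for SNRPD1 and 2.54 (SE 1.12) for SNRPG, with adjusted p = 0.427 and 0.426 by edgeR's quasi-likelihood test. None of 10 members tested was called, beside 1 transcript (0.103%) of 969, and DESeq2 called 0. An unadjusted p under 0.05 was seen for 3 of the 10 beside 11.1% of transcripts. Of its 30 reads in these 6 libraries SNRPG had 28 in JTE 1h, and SNRPD1 had 46 reads in JTE 1h against 7 in CTRL. Both thus reached the minimum through JTE 1h, and their fold changes and p-values are a description only. The same holds for the lack of overlap of SNRPG (seen in 13.8% of transcripts). With read length as a covariate the log2 fold changes were 1.04 for SNRPD1 and 2.01 for SNRPG, with adjusted p = 0.819 and 0.686 by edgeR. With all 6 untreated libraries as control, where set and treatment are mixed, SNRPD1 passed at a log2 fold change of 2.15 and adjusted p = 0.0372 by edgeR, beside 3.51% of transcripts. SNRPD1 was among the transcripts tested there because of its JTE 1h reads, so this pass is a description as well.

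SF3B5, a small subunit of the SF3B complex that holds the branch point, gave the most reads and was called lower in KCl 45min. Its transcript lies on chr6:144094884-144095573 on the minus strand. It had 16, 15 and 8 reads in CTRL, 2, 2 and 3 in KCl 45min and 12, 18 and 39 in JTE 1h, or 37.3 ± 6.74, 4.69 ± 1.77 and 31.7 ± 4.87 RPM. KCl 45min lay far below CTRL in every library, and JTE 1h overlapped with CTRL.

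SF3B5 was lower in KCl 45min by a log2 fold change of -3.11 (SE 0.641, adjusted p = 1.62e-04 by edgeR's quasi-likelihood test, Benjamini-Hochberg adjusted). It was the 1 member tested in that comparison, beside 25.1% called and 35.7% without overlap of 378 transcripts, and a median log2 fold change of -0.39 over them. The call held in all 17 alternatives, with log2 fold changes from -3.34 to -2.61. With 39 reads in CTRL and 7 in KCl 45min, SF3B5 reached the minimum through CTRL. Its call, p-value and lack of overlap are thus a description only, also in the alternatives. In JTE 1h its log2 fold change was -0.23 (SE 0.523, adjusted p = 0.876 by edgeR).

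In the imatinib set SF3B5 had 4, 13 and 6 reads in CTRLim, 12, 17 and 12 in IM 1h and 11, 17 and 13 in IM 18h, or 17.9 ± 5.96, 20.8 ± 7.79 and 11.5 ± 1.84 RPM. Its level also differed between the untreated groups, which did not overlap. The log2 fold change of CTRLim against CTRL was -1.04 (SE 0.400, adjusted p = 0.0943 by edgeR) and passed with TMM scaling, at -1.43 and adjusted p = 0.0323. No member of 3 tested was called there by edgeR on library reads or by DESeq2, beside 10.6% of 472 transcripts called by edgeR. Of the 3, SF3B5 alone had an unadjusted p under 0.05, beside 29.2% of transcripts, and groups without overlap, beside 32.2%.

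SF3B1, the scaffold of the SF3B complex, had 3, 1 and 2 reads in CTRL and 0 in each KCl 45min library. With 3 reads taken for the KCl 45min group in place of 0, SF3B1 was 3.46-fold lower there. This ratio leaves out the counting error of the CTRL reads and is not a bound. U2AF1, which binds the 3′ splice site, had 25 reads in all, 14 of them in JTE 1h, and was not tested. SF3B2 had 3, 1 and 0 reads in CTRL and 0 in each KCl 45min library, so that the groups overlapped.

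Of the U5 and U4/U6 proteins, PRPF8, the core of the catalytic center, had 14 reads over all libraries, the helicase SNRNP200 had 42 and PRPF31 had 5. None of these was tested. PRPF18, a second-step factor, had 5, 5 and 1 reads in CTRLim, 3, 11 and 16 in IM 1h and 16, 24 and 20 in IM 18h. Its IM 18h levels of 16.9 ± 1.99 RPM lay within the CTRLim range of 11.01 ± 9.98 RPM, and the log2 fold change of 0.92 (SE 0.490) had adjusted p = 0.221 by edgeR. With 60 reads in IM 18h and 11 in CTRLim, PRPF18 reached the minimum through IM 18h. PRPF38B, with 110 reads, passed in no comparison.

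In the LSM ring, LSM3 had 9, 3 and 6 reads in IM 1h and 2, 6 and 5 in IM 18h, or 8.69 ± 4.20 and 3.51 ± 1.30 RPM, with no overlap. Its log2 fold change of -1.24 (SE 0.531) had adjusted p = 0.0939 by edgeR. In JTE 1h LSM3 had 2, 16 and 21 reads against 3, 2 and 1 in CTRL, and its log2 fold change of 1.61 (SE 0.773) had adjusted p = 0.440 by edgeR. JTE 1h replicate 1 again lay within the CTRL range. With 39 reads in JTE 1h and 6 in CTRL, LSM3 reached the minimum through JTE 1h.

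LSM8, the subunit that sets the nuclear LSM ring apart from the cytoplasmic one, had 3, 2 and 4 reads in CTRLim, 6, 8 and 8 in IM 1h and 13, 15 and 17 in IM 18h. Per library read these were 8.29 ± 4.68, 10.9 ± 2.66 and 12.7 ± 1.05 RPM. The groups overlapped, and the log2 fold change of IM 18h against CTRLim was 0.80 (SE 0.512, adjusted p = 0.318 by edgeR). With 45 reads in IM 18h and 9 in CTRLim, LSM8 reached the minimum through IM 18h.

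PRPF4B, a kinase that acts on the tri-snRNP, has its transcript at chr6:4037419-4064983 on the plus strand. It had 1, 8 and 5 reads in CTRL and 0 in each KCl 45min library. With 3 reads taken for the KCl 45min group in place of 0, PRPF4B was 8.07-fold lower. This ratio leaves out the counting error and spread of the CTRL reads and is not a bound. With 14 reads in those 6 libraries it was below the minimum of 30. With a minimum of 10 reads edgeR called SF3B5, SNRPB and PRPF4B lower in KCl 45min, 3 of 16 members tested, beside 13.6% of 1885 transcripts. With a minimum of 1 read it called SF3B5 and PRPF4B, 2 of 51 members, beside 1.21% of 9247 transcripts. PRPF4B passed these minimums through its CTRL reads alone. SF3B5 (39 reads in CTRL, 7 in KCl 45min) and SNRPB (18 and 7) passed mainly through CTRL as well.

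In the imatinib set PRPF4B had 1, 5 and 1 reads in CTRLim, 11, 6 and 15 in IM 1h and 11, 17 and 10 in IM 18h, or 5.21 ± 3.69, 15.2 ± 4.23 and 10.8 ± 3.05 RPM. IM 1h lay above CTRLim without overlap, while the CTRL level of 13.9 ± 9.61 RPM overlapped with both. The log2 fold change of IM 1h against CTRLim, 1.45 (SE 0.566), did not pass, with adjusted p = 0.212 by edgeR, and that of IM 18h was 0.93 (SE 0.586, adjusted p = 0.312). PRPF4B had 7 reads in CTRLim, 32 in IM 1h and 38 in IM 18h, and so reached the minimum through the imatinib groups.

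LSM14A, an LSM-domain protein of the cytoplasm and not of the spliceosome, had 2, 8 and 6 reads in CTRLim, 10, 8 and 18 in IM 1h and 12, 15 and 27 in IM 18h. Its levels of 11.9 ± 3.07, 17.1 ± 4.65 and 14.8 ± 4.50 RPM overlapped. The log2 fold change was 0.46 (SE 0.442) in IM 1h and 0.25 (SE 0.435) in IM 18h against CTRLim, and neither passed, with adjusted p = 0.693 and 0.748 by edgeR. SNRNP27, a tri-snRNP protein counted inside MXD1, had a log2 fold change of 0.55 (SE 0.660, adjusted p = 0.644 by edgeR) in IM 18h against CTRLim. It reached the minimum mainly through IM 18h, with 25 reads there and 6 in CTRLim.

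**Figure D4:**
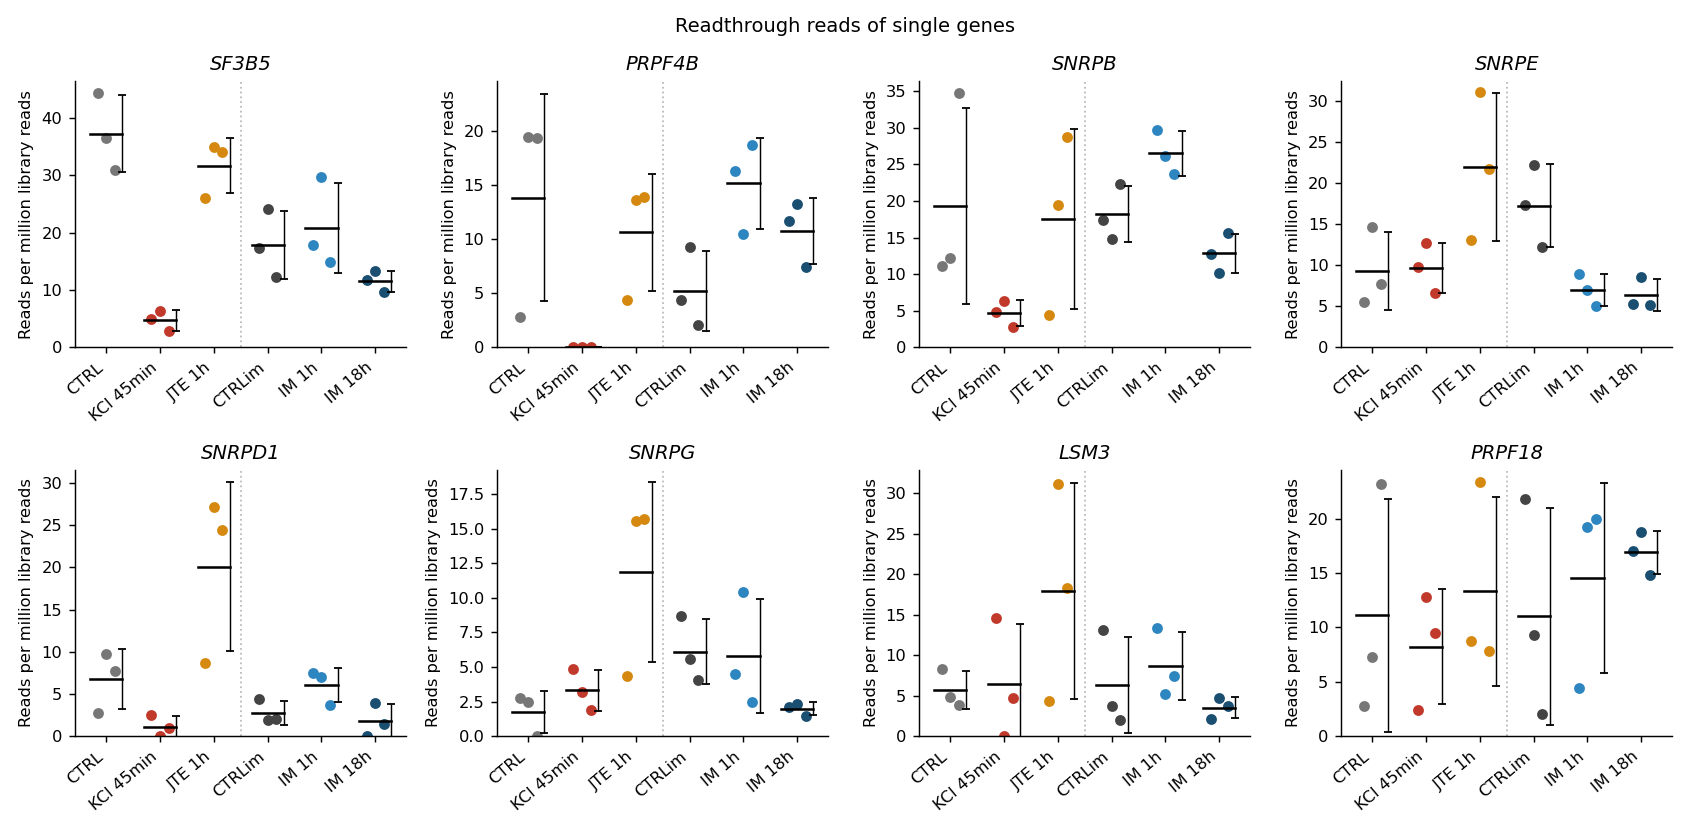
RPM of 8 members by library, with group means and SD over 3 libraries, on axes scaled to each gene. SF3B5 falls from 37.3 RPM in CTRL to 4.69 in KCl 45min, PRPF4B is at 0 in all KCl 45min libraries, and SNRPB lies lower in IM 18h (12.8 RPM) than in IM 1h (26.5 RPM).

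**Figure D5:**
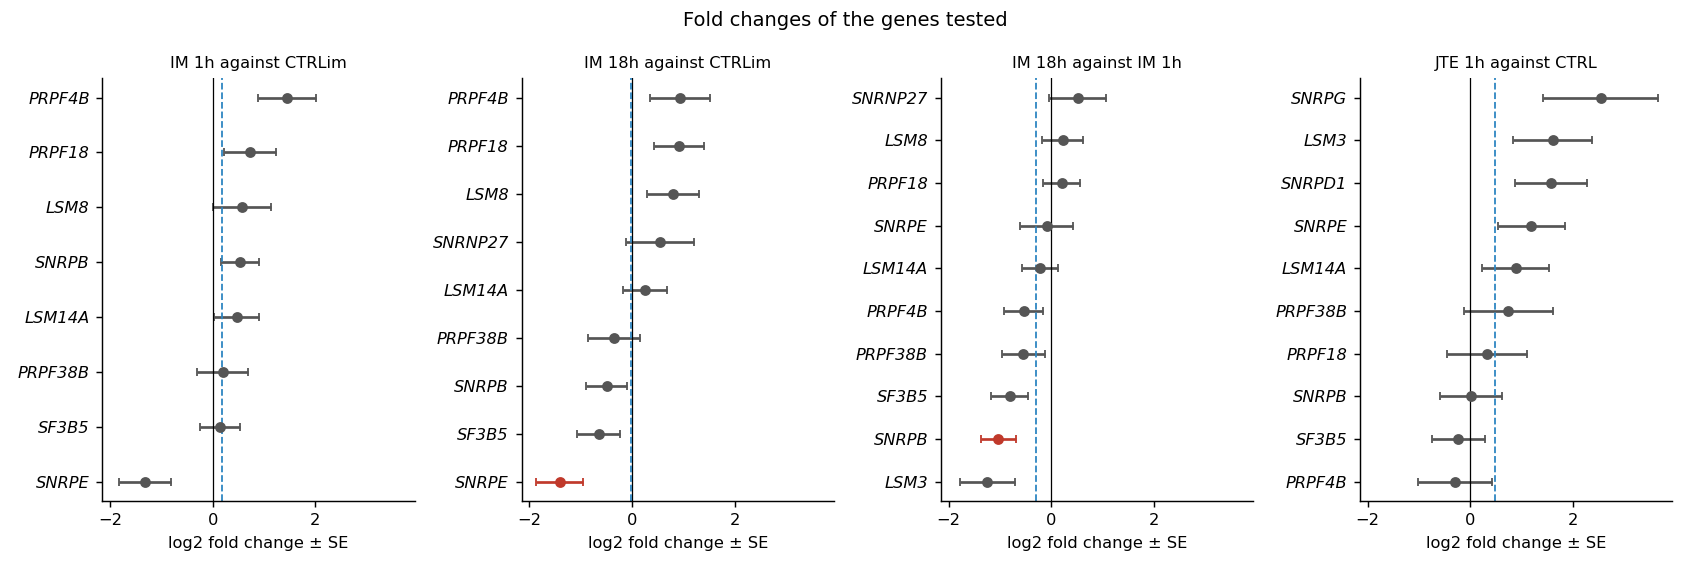
Log2 fold changes with SE of members tested in 4 comparisons (10 of the 11 in IM 18h against IM 1h), with members called by edgeR in red, 0 as a solid line and the median of all transcripts tested as a dashed line. SNRPE (-1.41) in IM 18h against CTRLim and SNRPB (-1.03) in IM 18h against IM 1h are the called members.

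The median log2 fold change of tested members was 0.50 in IM 1h against CTRLim beside 0.19 over all transcripts tested, and 0.25 beside -0.01 in IM 18h against CTRLim. It was -0.54 beside -0.30 in IM 18h against IM 1h, and 0.82 beside 0.49 in JTE 1h against CTRL. By pooled level, with no minimum, 41 of 56 members (73.2%) were lower and 11 higher in IM 18h than in IM 1h, beside 41.8% of all transcripts lower and 35.3% higher. In KCl 45min 38 (67.9%) were lower and 13 higher than in CTRL, beside 38.2% and 32.6%, and in JTE 1h 41 (73.2%) were higher and 13 lower, beside 50.9% and 24.5%. Against CTRLim, IM 1h had 34 higher and 19 lower, beside 42.6% and 26.8%, and IM 18h had 24 higher and 29 lower, beside 43.5% and 31.7%. In IM 18h against CTRLim most members were thus lower although the median of the 9 tested was positive. Among the tested members with positive fold changes, PRPF18, PRPF4B, LSM8 and SNRNP27 reached the minimum through IM 18h. The IM 18h libraries held 3566937 reads in all and the CTRLim libraries 1262235. That median therefore describes the tested members only. Between the untreated groups 34 members were lower and 18 higher in CTRLim, beside 33.6% and 32.0%. Transcripts without a read in both groups count as equal, and they are more common among all transcripts than among members.

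Other spliceosome and snRNP assembly genes were read from lists of helicases, PRP19-related complexes, branch point and tri-snRNP partners, second-step and assembly factors, 81 of them in the table. In IM 18h against IM 1h 18 were tested, 4 fell and 0 rose, beside 18.3% of all transcripts tested being called. These were the snRNP assembly factors GEMIN7 (log2 fold change -1.20), WDR77 (-1.69) and DDX20 (-0.88), and SF1 (-1.14), which binds the branch point before U2. WDR77 had 13, 9 and 8 reads in IM 1h and 3, 7 and 6 in IM 18h, and so passed the minimum mainly through IM 1h. GEMIN7 fell by 1.81 and SF1 by 1.78 on the log2 scale in KCl 45min against CTRL, the 2 list genes tested there, each with adjusted p = 0.0284 by edgeR, beside 25.1% of all transcripts tested being called. GEMIN7 had 9, 9 and 8 reads in CTRL and 1, 5 and 6 in KCl 45min. SF1 had 10, 9 and 6 reads in CTRL and 5, 1 and 6 in KCl 45min. Both thus passed the minimum mainly through CTRL, and their falls and p-values there are a description only. In IM 1h and IM 18h against CTRLim, JTE 1h against CTRL and CTRLim against CTRL, 13, 12, 13 and 3 were tested and edgeR called none.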

How the data were processed

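The authors trimmed reads with cutadapt, mapped them with minimap2 to GRCh38.p14, and removed polyadenylated and non-unique reads and splicing intermediates. They deposited raw counts of readthrough reads per representative transcript for 18 libraries. Transcripts were named from GENCODE 44 (12704 of 13051 matched). Library size was the number of filtered reads per library in the supplement of the study. Counts were tested with edgeR 4.0.16 in R 4.3.3 (glmQLFit, glmQLFTest) on 6 libraries per comparison, at least 30 reads, no further scaling, and Benjamini-Hochberg adjustment over all transcripts tested. The standard error is the log2 fold change over the root of F. Tested on simulated data with a log2 change of 2, the fit called 56.5% of the changed genes in JTE 1h against CTRL (969 transcripts) and 71.4% in KCl 45min against CTRL (378 transcripts), and 84% to 94.9% in the others.

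Members and lists were chosen with earlier results of these data known. Named genes were members called, the 5 with smallest p per comparison, the 12 with most reads, and SF3B1, U2AF1, U2AF2, PRPF8, SNRNP200, SNRNP70, SNRPN and PRPF31. Other genes are named for their neighborhood, sequence or levels of 0, and were chosen after their values were seen. Replicates are labelled biological, and same-numbered libraries did not correlate above 0.1 in all 3 pairs of any comparison, so no pairing was used. DESeq2 1.42.0, other scalings, minimums and left-out libraries were alternatives. Values of 1 member are not reported here, though its reads are part of the sums.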

Additional observations from a re-analysis of the deposited data

Results flagged for a closer look

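SNRPB, the gene of the Sm proteins B and B′, was called different between the imatinib time points: IM 18h was lower than IM 1h by a log2 fold change of -1.03 in edgeR's quasi-likelihood test (SE 0.336, adjusted p = 0.0211). All 3 IM 18h libraries lay below all 3 IM 1h libraries. Of all transcripts tested, 18.3% were called and 26.3% lay lower without overlap, and the call of SNRPB was lost in 9 of 15 alternatives, with adjusted p from 0.0199 to 0.207 over them by edgeR or DESeq2.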

How the results depend on the processing

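Counts of members called moved in several settings, and for each the cause was not tested. In IM 18h against CTRLim the 1 call, SNRPE, became 0 with a minimum of 10 reads or 1 read, DESeq2, mapped reads as library size, all 6 untreated libraries as control, and both fits of all 18 libraries. In IM 18h against IM 1h the 1 call, SNRPB, became 0 with a minimum of 1 read, DESeq2, TMM scaling, readthrough reads as library size, and both fits of all 18 libraries. With 1 library left out, each of these counts ranged from 0 to 1, SNRPE being lost without CTRLim replicate 2 or 3 or IM 18h replicate 3, and SNRPB without IM 1h replicate 1 or 2 or IM 18h replicate 2. In KCl 45min against CTRL the count of 1 became 3 with a minimum of 10 reads, 2 with a minimum of 1 read, and 4 (SF3B1, SF3B5, SNRPB and PRPF4B) in the fit of all 18 libraries with at least 30 reads over them, which was chosen after seeing the data and called 9.97% of 3480 transcripts. JTE 1h against CTRL had 1 call (SNRPD1) with all 6 untreated libraries, and CTRLim against CTRL 1 (SF3B5) with TMM scaling.

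With the replicate number as a block, counts of called members were 1 in both IM 18h comparisons and in KCl 45min and 0 elsewhere, as without it. Same-numbered libraries correlated above 0.1 in at most 2 of 3 pairs of a comparison, so the numbers were not taken to pair libraries. SNRPB in CTRLim against CTRL, at a log2 fold change of 0.03, turned to -0.013 with the block, -0.021 with DESeq2, -0.36 with TMM, -0.19 with readthrough reads and -0.047 with mapped reads as library size, and ranged from -0.23 to 0.63 with 1 library left out. Per 1000000 readthrough reads, another unit, the summed difference was 624.8 for IM 1h against CTRLim, -667.7 for IM 18h against CTRLim, -1292 for IM 18h against IM 1h, 597.1 for JTE 1h, -2684 for KCl 45min and -2212 for CTRLim against CTRL. With mapped reads as library size that of IM 18h against IM 1h was -66.1 per 1000000. The summed difference of JTE 1h against CTRL ranged from 65.0 to 189.5 RPM with 1 library left out, the latter without JTE 1h replicate 1. Of 379 alternatives for 24 results of single genes, 350 kept direction and side of the threshold. Most of these results were not called in the main fit, so that keeping the side meant staying uncalled. Of the called results, SNRPB in IM 18h against IM 1h kept its call in 6 of 15 alternatives. SNRPE in IM 18h against CTRLim kept it in 6 of 16, and SF3B5 in KCl 45min in 17 of 17.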
